A study of Danio rerio with 8 samples.

Results

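Heat shock proteins and DnaJ cochaperones were examined in sorted zebrafish chondrocytes. Members were the genes whose symbol in the deposited table began with hsp and a digit, with hspa, hspb, hspd, hspe or hsph and a digit, or with dnaj. The endoplasmic reticulum chaperones hspa5 and hsp90b1 were left out. The rule gave 79 of the 32057 genes in the table, made up of 14 hsp70, 3 hsp90, 9 small heat shock protein, 2 chaperonin and 51 dnaj genes. From textbook knowledge 13 of them were set apart as stress-induced, out of 14 listed (hspa1b is no symbol of the table), and the other 66 were called constitutive. The constitutive class is thus a default for every member not listed. Whether its genes answer stress was not examined, so it can hold inducible ones.

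The study measured messenger RNA in 4 kat6a libraries and 4 WT libraries of chondrocytes, the cells that make cartilage. The product of kat6a is an enzyme that acetylates histones. The labels name this gene in the genotype of the kat6a libraries, and the series design calls these cells deficient for it, without giving the allele. Both groups carried Tg(sox10:EGFP), a reporter driven in neural crest and its derivatives, and Tg(col2a1a:mcherry), a reporter driven in cartilage. Cells positive for both reporters were sorted from larvae at 3 days post fertilisation kept at 28.5 degrees Celsius with 0.003% PTU, an inhibitor of pigment formation, and no heat treatment is described. The series design calls the replicates biological, but no label says whether they came from separate clutches or sorts, so p-values measure the spread between these libraries.

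Chaperones hold and refold unfolded proteins. Hsp70 binds short stretches of an unfolded chain and uses ATP, DnaJ proteins (also called Hsp40) deliver the chain and switch on that ATPase, and nucleotide exchange factors of the Hsp110 kind reset it. Hsp90 completes the folding of kinases and receptors, the chaperonin Hsp60 with its lid Hsp10 folds proteins inside mitochondria, and small heat shock proteins keep unfolded chains from clumping. Under heat or other protein damage the transcription factor Hsf1 switches on a subset of these genes, while their constitutive relatives serve the daily needs of the cell. Cells taken apart and sorted often show such a response, and in zebrafish hsp70 is also expressed without heat in the developing lens.

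Values are FPKM, fragment numbers scaled to transcript length and to the mapped total of the library, as the authors deposited them. The table keeps no counts, so depth is unknown. Between 11010 and 15351 genes stood above 0 in kat6a libraries and between 13483 and 16108 in WT libraries. Of the 3035 genes with a mean of at least 10 FPKM, 30 were listed at 0 in at least 1 library, so a listed 0 is not read here as absence. Transcripts of kat6a itself were at 28.2, 11.98, 12.4 and 9.09 FPKM in kat6a replicates 1 to 4 and 31.98, 15.2, 16.3 and 18.9 FPKM in WT replicates 1 to 4, with overlap, and since the allele is not given they do not check the labels. The libraries numbered 1 in both groups stood apart, with the 8 chondrocyte markers chosen for a check summing to 33845 FPKM in kat6a replicate 1 and 27479 in WT replicate 1, against 52704 to 60080 in the other 6 libraries. That sum was led by col2a1a, matn1, col9a1a and col11a2, and not every marker was lower there. FPKM of acana was 2127 in kat6a replicate 1 and 2389 in WT replicate 1, against 1240 to 1636 in the other 6. For hapln1a it was 234 and 321, against 35.2 to 74.3. All 8 markers of this check, among them col2a1a, matn1 and sox9a, were above 0 in every library. The 3 genes that gave the group its working name, hsp70l, hsp70.3 and dnajb1b, were above 0 in every library too.

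The summed FPKM of stress-induced members had a lower mean in the kat6a libraries, and 6 abundant genes, the 4 hsp70 copies, hsp90aa1.2 and dnajb1b, made up most of it. Of the other 7, hspb9 and hspb11 had higher means in kat6a, hspb15 was listed at 0 in every library, and hspb1, hspb11 and hsph1 averaged under 1 FPKM. The 13 stress-induced members summed to 1171, 491, 1117 and 503.7 FPKM in kat6a replicates 1 to 4, against 2371, 1400, 1468 and 1097 FPKM in WT replicates 1 to 4. The kat6a libraries fell into a higher and a lower pair, and the ranges of the groups overlapped because kat6a replicates 1 and 3 lay just above WT replicate 4. The mean of the kat6a sums was 51.8% of that of the WT sums, and the sum was lower in kat6a in 4 of 4 pairs of libraries with the same number. The 66 constitutive members summed to 1017 ± 156 FPKM in kat6a and 1081 ± 218 FPKM in WT (SD, n = 4 each), lower in kat6a in 2 of 4 pairs. That sum was led by hsp90ab1, with means of 452 FPKM in kat6a and 466 in WT, and hspa8, with 224 and 243. It says little of the other constitutive members. As a share of all member FPKM the stress-induced genes made up 43.0% ± 9.20 in kat6a and 58.7% ± 5.93 in WT (SD, n = 4 each). In these bulk samples fewer cells with a transcript and less of it per cell cannot be told apart.

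**Figure D1:**
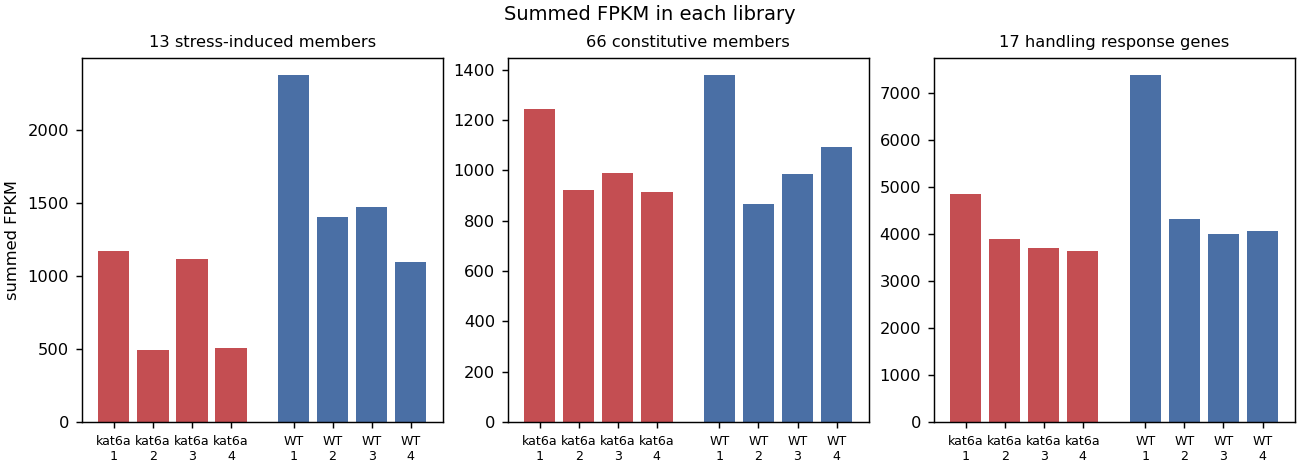
Summed FPKM of the 13 stress-induced members, the 66 constitutive members and 17 genes of the handling response in each of 8 libraries (kat6a left, WT right; bars are single libraries, vertical axes start at 0). The stress-induced sum was 491 to 1171 FPKM in kat6a and 1097 to 2371 in WT, and the constitutive sums of the groups lay in the same range.

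Inducible cytosolic hsp70 carried most of that signal. The genes hsp70l, hsp70.1, hsp70.2 and hsp70.3 encode heat-inducible Hsp70 and together made up 76.2% ± 2.62 of the stress-induced FPKM in kat6a and 76.6% ± 3.14 in WT (SD, n = 4 each). FPKM of hsp70l was 298, 102, 239 and 122 in kat6a replicates 1 to 4 and 577, 322, 338 and 258 in WT replicates 1 to 4. Only kat6a replicate 1 reached into the WT range of this gene. For hsp70.3 the values were 289, 117, 240 and 115 FPKM in kat6a and 542, 308, 330 and 254 in WT. The order of the libraries was nearly that of hsp70l, with WT replicate 1 highest and kat6a replicates 2 and 4 lowest. FPKM of hsp70.2 was 237, 89.4, 187 and 86.7 in kat6a and 452, 237, 268 and 205 in WT, and that of hsp70.1 was 69.8, 67.8, 146 and 74.6 in kat6a and 327, 187, 212 and 82.3 in WT.

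Each of the 4 copies was lower in kat6a in 4 of 4 pairs, as were 16.3% of all tested genes. Mean FPKM in kat6a as a share of that in WT was 50.9% for hsp70l, 53.1% for hsp70.3, 51.6% for hsp70.2 and 44.3% for hsp70.1. On the log2(FPKM + 1) scale the fold change of kat6a over WT was -1.04 ± 0.36 (SE) for hsp70l, with an unadjusted limma p of 0.0166. It was -0.97 ± 0.34 for hsp70.3, -1.02 ± 0.36 for hsp70.2 and -1.08 ± 0.40 for hsp70.1, with unadjusted limma p of 0.0173, 0.0184 and 0.0214. After Benjamini-Hochberg adjustment over the 11763 genes tested, those averaging 0.5 FPKM or more, the limma adjusted p was 0.958 for all 4, so none passed the threshold of 0.05. The exact two-sided permutation p over libraries was 0.0571 for each, where 4 against 4 allows no less than 0.0286.

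The copies are not independent of each other. In the RefSeq annotation of build GRCz12tu hsp70.1, hsp70.2 and hsp70.3 are direct neighbours, while hsp70l lies on another chromosome, and such near-identical genes can share reads. The ratio of hsp70.2 to hsp70.3 stayed between 0.753 and 0.835 in all 8 libraries, and that of hsp70l to hsp70.3 between 0.870 and 1.07. The ratio of hsp70.1 to hsp70.3 was more variable, between 0.242 and 0.648. For genes of other families, the ratio to hsp70.3 lay between 0.415 and 0.680 for hsp90aa1.2 and between 0.240 and 0.657 for dnajb1b. Sequences of the copies were not compared, and how far they share reads was not tested. The values of these copies are uncertain one by one, and their 4 results are not independent. Without the pair numbered 1 the log2 fold change of hsp70.1 was -0.71.

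**Figure D2:**
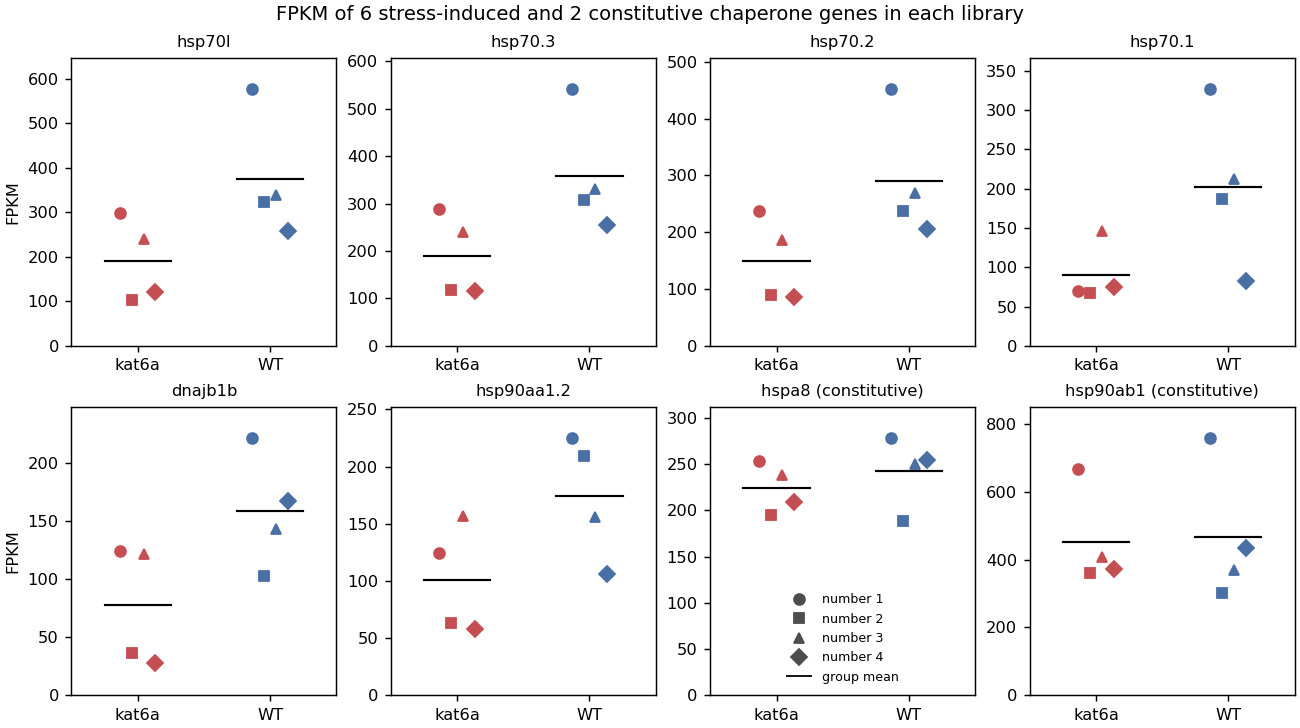
FPKM of 6 stress-induced genes and of the constitutive genes hspa8 and hsp90ab1 in kat6a (left) and WT (right) libraries; each point is 1 library, its shape gives the replicate number and the line is the group mean. For the 4 hsp70 copies, dnajb1b and hsp90aa1.2 the kat6a mean lay at 44.3% to 57.7% of the WT mean, while hspa8 stood at 92.1% and hsp90ab1 at 97.0%.

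The constitutive Hsp70 genes had log2 fold changes nearer to 0. Their main cytosolic member is hspa8 (Hsc70), at 254, 195, 238 and 209 FPKM in kat6a replicates 1 to 4 and 278, 188, 250.4 and 255 FPKM in WT replicates 1 to 4. The groups overlapped over most of their range. The log2 fold change was -0.11 ± 0.17 (SE), with a 95% interval of -0.48 to 0.26 and a limma adjusted p of 0.987, and it turned to 0.049 with median-ratio scaling. Of the 7 tested constitutive members of the hsp70 family 5 had a log2 fold change below 0, against 69.5% of all tested genes. These 7 had a median of -0.073 and a range of -0.40 to 0.11. With median-ratio scaling 2 of them were below 0, against 55% of all tested genes. The family also holds genes of the Hsp110 kind, of which 2 of 4 were tested, with log2 fold changes of -0.40 for hspa4a and -0.073 for hspa4b. The stress-induced one, hsph1, fell short of that filter at a mean of 0.485 FPKM. It was listed at 0, 0, 0.472 and 0.0918 FPKM in kat6a and at 0.692, 0.565, 1.06 and 0.997 FPKM in WT, so its groups did not overlap, at a level where a listed 0 says little.

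The cytosolic Hsp90 genes comprise inducible and constitutive forms. The inducible form hsp90aa1.2 stood at 124, 62.9, 156 and 57.6 FPKM in kat6a and at 225, 209, 156 and 106 FPKM in WT. Libraries 2 and 4 were the lowest of the kat6a group again, and the groups overlapped. Mean FPKM in kat6a was 57.7% of that in WT, with a log2 fold change of -0.86 ± 0.36 (SE). The unadjusted limma p was 0.0368, the limma adjusted p 0.958 and the exact two-sided permutation p 0.143. The neighbouring copy hsp90aa1.1, known in zebrafish for folding muscle myosin, was at 3.61, 0.457, 11.1 and 3.68 FPKM in kat6a and 4.35, 12.6, 6.82 and 7.30 FPKM in WT. Its log2 fold change was -0.91 ± 0.57 (SE), with a limma adjusted p of 0.958.

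The constitutive form hsp90ab1 was the most abundant member of all, ranked 99 among all genes of the table by mean FPKM. It stood at 669, 361, 407 and 372 FPKM in kat6a and at 760.1, 300.2, 371 and 434 FPKM in WT. Both libraries numbered 1 were high, and the other 6 libraries of the groups interleaved. The log2 fold change was -0.0011 ± 0.30 (SE), with a 95% interval of -0.66 to 0.66 and a limma adjusted p of 0.9999. With median-ratio scaling the log2 fold change stood at 0.16.

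DnaJ proteins made up the largest family, with 38 of 51 genes tested. Its stress-induced member dnajb1b, the main cytosolic partner of inducible Hsp70, had 124, 36.6, 122 and 27.6 FPKM in kat6a replicates 1 to 4 and 221, 102, 143 and 167 FPKM in WT replicates 1 to 4. The kat6a libraries again split into a higher pair, numbered 1 and 3, and a lower pair, numbered 2 and 4. Mean FPKM of dnajb1b in kat6a was 48.9% of that in WT, with a log2 fold change of -1.27 ± 0.49 (SE). Its unadjusted limma p was 0.0257, its limma adjusted p 0.958 and its exact two-sided permutation p 0.114. Its paralog dnajb1a was far lower, at 9.42 ± 4.17 FPKM in kat6a and 10.7 ± 4.18 FPKM in WT (SD, n = 4 each), with a log2 fold change of -0.18 ± 0.33 (SE).

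The 36 tested constitutive DnaJ genes had a median log2 fold change of -0.14, beside -0.16 over all genes tested. Of these 36, 28 lay below 0, against 69.5% of all tested genes. With median-ratio scaling 18 of the 36 were below 0, against 55% of all tested genes, and their median was -0.014. The most abundant was dnaja2a, a general partner of Hsc70, at 49.3 ± 4.14 FPKM in kat6a and 47.1 ± 7.05 FPKM in WT (SD, n = 4 each). Next came dnajc1, a J protein of the endoplasmic reticulum membrane, at 36.5 ± 6.80 and dnajb11, a partner of the chaperone Hspa5, at 23.4 ± 7.99 FPKM in kat6a, against 30.7 ± 2.40 and 25.2 ± 9.38 FPKM in WT (SD, n = 4 each). None of these 3 genes was called, with limma adjusted p of 0.989 for dnaja2a, 0.958 for dnajc1 and 0.994 for dnajb11.

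Members were also grouped by their place in the cell. For the lumen of the endoplasmic reticulum, 7 DnaJ genes whose proteins work in or face it were taken, without a claim to be complete. They were dnajb9a, dnajb9b, dnajb11, dnajc1, dnajc3a, dnajc3b and dnajc10. Among them dnajb9a, dnajb9b, dnajc3a and dnajc10 were named by role, outside the rule for named genes. Of the 7 genes, 4 had a log2 fold change below 0 and 3 above, with a median of -0.073. With median-ratio scaling 3 were below 0. Of 7 tested mitochondrial members 5 were below 0, with a median of -0.044, and with median-ratio scaling 2 were below 0. Of the 5 genes for cysteine string proteins, which guard vesicle release, 3 were tested, all below 0 with a median of -0.090. With median-ratio scaling 1 of these 3 was below 0. Among all tested genes 69.5% lay below 0, with a median of -0.16, and 55% with median-ratio scaling.

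The groups did not overlap for 2 tested members, both lower in kat6a, or 3.45% of tested members against 2.57% of all tested genes. One was dnajc9, which in human cells is known as a cochaperone that handles histones, at 0, 0.590, 1.51 and 0 FPKM in kat6a and 3.23, 1.87, 1.81 and 1.72 FPKM in WT. Its log2 fold change was -1.13 ± 0.36 (SE), with an unadjusted limma p of 0.00984 and a limma adjusted p of 0.958, and it rests on listed values of 0 in kat6a replicates 1 and 4. With a pseudocount of 0.1 it was -2.75. The other was dnajc3b, whose mammalian relative restrains the stress kinase PERK, at 6.85, 7.004, 5.49 and 7.48 FPKM in kat6a and 8.03, 7.502, 8.92 and 8.84 FPKM in WT. The ranges were separated by a small gap between kat6a replicate 4 and WT replicate 2. Its log2 fold change was -0.28 ± 0.21 (SE), or -0.14 with median-ratio scaling, with a limma adjusted p of 0.958. No tested member was higher in all kat6a libraries, against 0.561% of all tested genes.

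**Figure D3:**
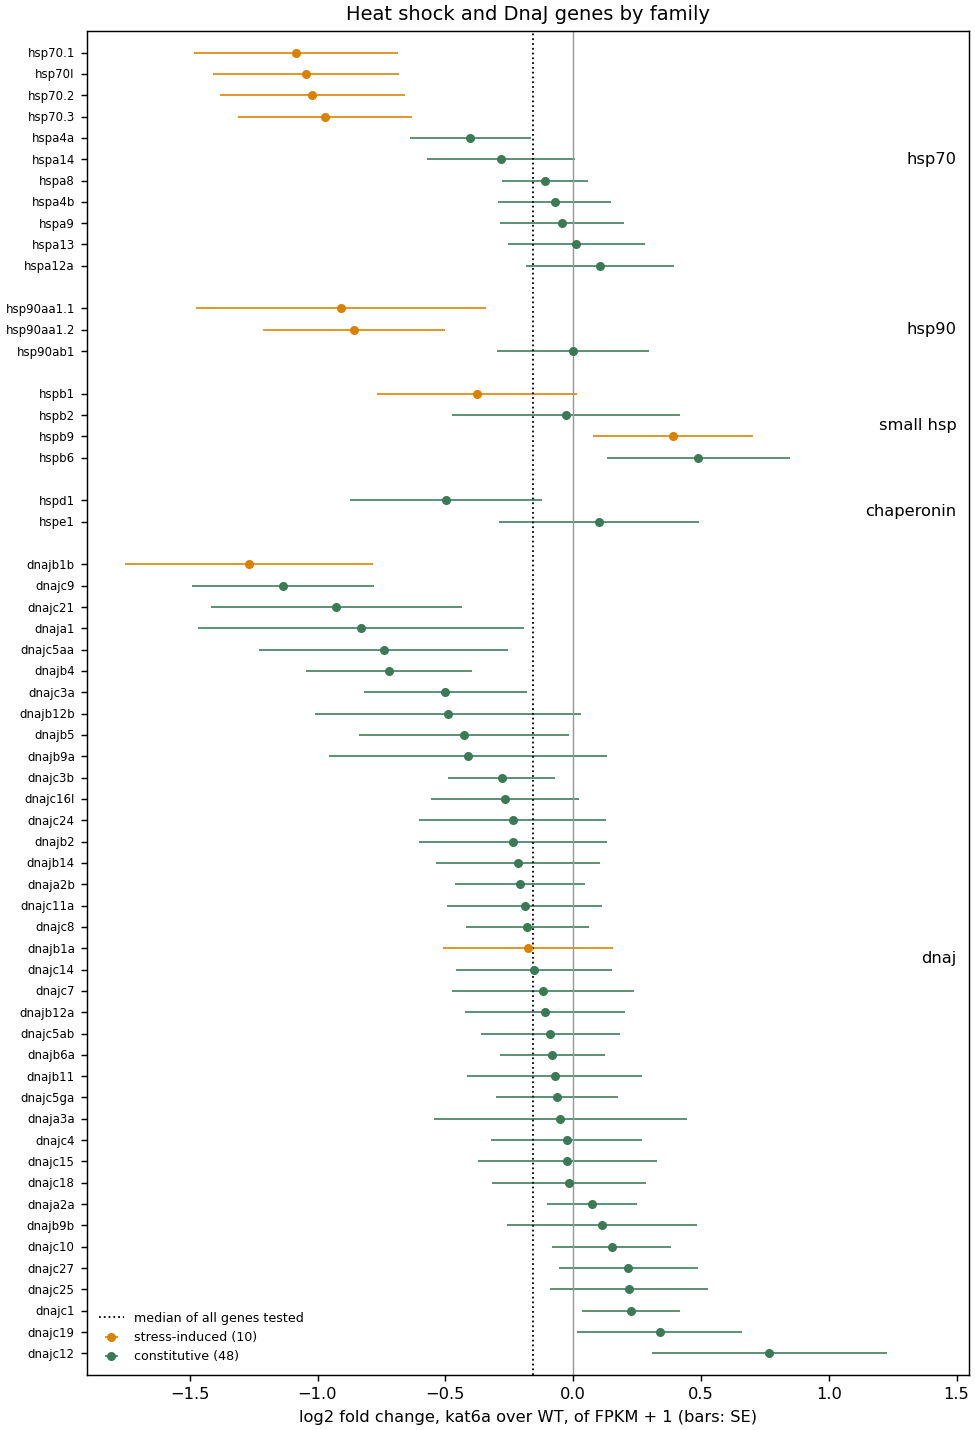
Log2 fold change of kat6a over WT on FPKM + 1, with its SE, for the 58 tested members by family (stress-induced members in orange, constitutive members in green); the dotted line is the median of all 11763 genes tested, -0.16. The 4 hsp70 copies, both hsp90aa1 genes and dnajb1b lie between -1.27 and -0.86. The other tested stress-induced members, dnajb1a, hspb1 and hspb9, lie at -0.18, -0.38 and 0.39. The 48 constitutive members scatter from -1.13 to 0.77 about a median of -0.10.

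The chaperonin genes hspd1 (Hsp60) and hspe1 (Hsp10), which are neighbours in the RefSeq annotation of build GRCz12tu, gave separate values. FPKM of hspd1 was 10.2, 20.7, 23.2 and 13.7 in kat6a and 10.8, 26.2, 30.9 and 32.5 in WT, lower in kat6a in 4 of 4 pairs. FPKM of hspe1 was 13.1 ± 4.35 in kat6a and 12.7 ± 6.84 in WT (SD, n = 4 each). The log2 fold changes were -0.50 ± 0.38 and 0.10 ± 0.39 (SE), with limma adjusted p of 0.958 and 0.994.

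Small heat shock proteins were scarce in these cells. Of the 9 genes 4 passed the filter, and hspb7 and hspb15 were listed at 0 in every library. The highest was hspb9, stress-induced in zebrafish, at 9.47, 7.38, 5.72 and 8.04 FPKM in kat6a and 3.63, 8.82, 3.70 and 7.43 FPKM in WT. It was the only tested stress-induced member with a log2 fold change above 0, at 0.39 ± 0.31 (SE) and a limma adjusted p of 0.958. The muscle-type small heat shock gene hspb6 was at 0.427, 0.622, 0.732 and 2.04 FPKM in kat6a and at 0, 0.0872, 0.285 and 1.25 FPKM in WT, higher in kat6a in 4 of 4 pairs, as were 4.49% of all tested genes. The heat-inducible hspb1 (Hsp27) was listed at 0, 0, 0.547 and 1.15 FPKM in kat6a and 0.852, 1.84, 0.796 and 0 FPKM in WT. The log2 fold change was -0.38 ± 0.39 (SE) for hspb1 and 0.49 ± 0.36 (SE) for hspb6, the latter with a limma adjusted p of 0.958. The muscle-type gene hspb2 was listed at 2.88, 0, 1.24 and 0 FPKM in kat6a and 0.650, 0.905, 1.15 and 0.391 FPKM in WT, with a log2 fold change of -0.028 ± 0.45 (SE) that turned to 0.18 with quantile normalisation. With a pseudocount of 0.1 in place of 1 the log2 fold changes of these scarce genes were larger, at -1.09 for hspb1, -0.88 for hspb2 and 1.53 for hspb6. Below the filter, hspb11 was listed at 0.0817, 0.240, 1.17 and 0.521 FPKM in kat6a and 0.474, 0.390, 0 and 0.802 FPKM in WT.

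Over all members limma called none at an adjusted p under 0.05, where 0.017% of all tested genes were called. At an unadjusted limma p under 0.05, 7 of 58 tested members (12.1%) were lower in kat6a, against 3.92% of all tested genes, and 0 were higher, against 0.646%. Of those 7, 6 were among the 10 tested stress-induced members, namely the 4 hsp70 copies, dnajb1b and hsp90aa1.2. The remaining 1 was among the 48 tested constitutive members, dnajc9. The 4 hsp70 copies can share reads, so these counts and shares are not of independent genes. The other 21 members fell short of the filter and were not tested, 4 of them listed at 0 in every library. With median-ratio scaling hsp90aa1.2 no longer had an unadjusted p under 0.05 and the stress-induced count was 5. The stress-induced count depended on single libraries. It was 0 without kat6a replicate 2, 0 without kat6a replicate 4 and 2 without WT replicate 1, the last being hsp70l and hsp70.3. Without any other single library it was 4 to 7. Without the pair numbered 1 it was 4, with a stress-induced median of -0.93. The total of lower members was 2 without kat6a replicate 2 and 1 without kat6a replicate 4. Of all 11763 tested genes, 461 were lower at that p in the main fit and 348 with median-ratio scaling. The number was 397 without kat6a replicate 2, 253 without kat6a replicate 4 and 346 without WT replicate 1. It was 396 to 684 without any other single library and 536 without the pair numbered 1. With the replicate number as a block in the limma fit, 10 members were lower at an unadjusted p under 0.05, against 8.31% of all tested genes, 1 was higher, against 2.09%, and 0 were called after adjustment, against 0.0085%.

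The median log2 fold change was -0.94 over the 10 tested stress-induced members and -0.10 over the 48 tested constitutive ones, beside -0.16 over all genes tested. A log2 fold change below 0 was found in 9 and 36 of them, against 69.5% of all tested genes, a share that was 55.0% with median-ratio scaling and 47.7% with quantile normalisation. Median-ratio scaling moved the median of all genes to -0.041 and that of the constitutive members to 0.039, with 22 of 48 below 0, and left the stress-induced median at -0.81, with 9 of 10 below 0. Quantile normalisation gave -0.93 for the stress-induced and 0.060 for the constitutive members beside 0.017 for all genes. The 4 hsp70 copies, which are not independent, enter the stress-induced median as 4 genes. By family the unscaled stress-induced median was -1.03 for these 4 copies. It was -0.88 for 2 hsp90 genes, -0.72 for 2 dnaj genes and 0.0080 for 2 small heat shock genes.

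A ratio of one gene to another within a library does not change with a scaling factor for the library. Such ratios were formed for 4 pairs of relatives after the values had been seen, 3 with a constitutive gene below and 1, dnajb1b over dnajb1a, between members that are both classed as stress-induced. The ratio of hsp70l to hspa8 was 1.18, 0.524, 1.004 and 0.582 in kat6a replicates 1 to 4 and 2.07, 1.71, 1.35 and 1.02 in WT replicates 1 to 4. Only kat6a replicate 1 lay above the lowest WT library, replicate 4. The ratio of hsp70.3 to hspa8 was 1.14, 0.602, 1.01 and 0.551 in kat6a and 1.94, 1.63, 1.32 and 0.9996 in WT. That of hsp90aa1.2 to hsp90ab1 was 0.186, 0.174, 0.384 and 0.155 in kat6a and 0.296, 0.697, 0.420 and 0.244 in WT, and that of dnajb1b to dnajb1a was 7.97, 5.52, 14.5 and 3.90 in kat6a and 13.5, 9.24, 16.4 and 24.97 in WT.

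Each of the 4 ratios was lower in kat6a in 4 of 4 pairs. Of all tested genes, taken singly, 16.3% were lower in 4 of 4 pairs. The upper genes were already seen to have lower means in kat6a, so the ratios and their p-values are no separate test. Those of hsp70l and hsp70.3 share hspa8, and these copies can share reads, so the 4 ratios are not independent. The log2 difference of kat6a and WT means was -0.94 for hsp70l over hspa8, -0.86 for hsp70.3 over hspa8, -0.87 for hsp90aa1.2 over hsp90ab1 and -1.09 for dnajb1b over dnajb1a. The exact two-sided permutation p was 0.0571 for the first and 0.0857 for the other 3, and 0.0857 for all 4 after adjustment over the 4 ratios. None of them passed 0.05. With 1 library left out at a time the differences lay between -1.44 and -0.58 over the 4 ratios.

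**Figure D4:**
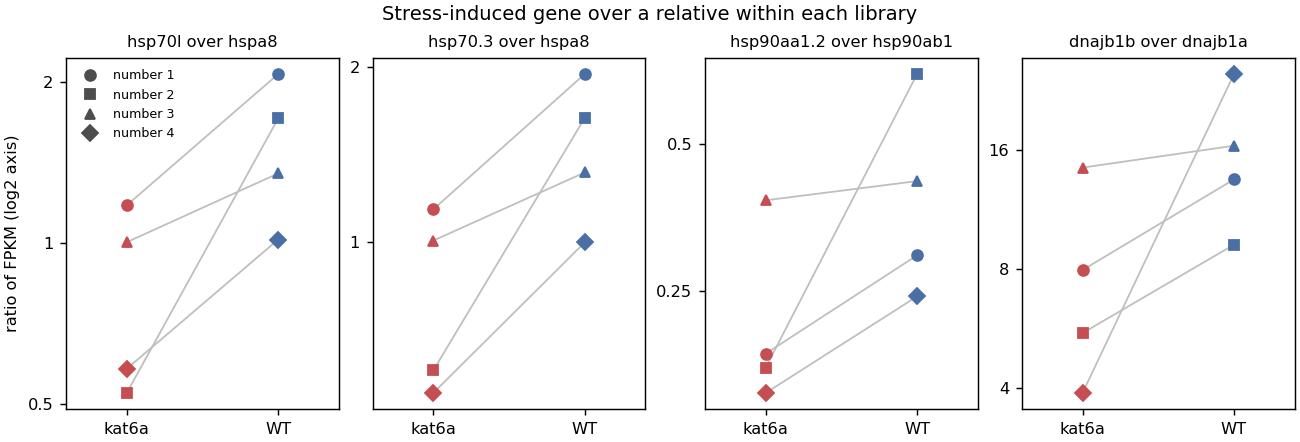
Ratio of FPKM of a stress-induced gene to that of a relative within each library (log2 axis; hspa8 and hsp90ab1 are constitutive, dnajb1a is stress-induced), kat6a left and WT right; lines join libraries with the same replicate number. Every line runs from a lower kat6a ratio to a higher WT ratio, and in each panel the highest kat6a ratio lies above the lowest WT ratio.

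The wider pathway was read from 50 genes for heat shock factors, Hsp70 and Hsp90 cochaperones, the cytosolic chaperonin and ubiquitin, chosen by role with earlier results of these data known. One symbol, cct2, stands on 2 gene IDs, so they gave 51 IDs, of which 48 were tested. None was called by limma over all genes. At an unadjusted limma p under 0.05, 5 of the 48 were lower in kat6a, against 3.92% of all tested genes, and 0 were higher, against 0.646%. The median log2 fold change was -0.13, or 0.022 with median-ratio scaling. Transcripts of hsf1, the master regulator of the heat shock response, were at 8.31, 5.34, 6.30 and 1.43 FPKM in kat6a and 4.98, 5.20, 5.99 and 4.16 FPKM in WT. The kat6a libraries surrounded the WT range, with a log2 fold change of -0.089 ± 0.39 (SE) that turned to 0.026 with median-ratio scaling and to 0.12 with quantile normalisation.

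Genes for the Hsp90 ATPase activator Aha1 were among the 5. FPKM of ahsa1b was 8.61, 6.76, 6.95 and 6.45 in kat6a and 13.4, 14.3, 10.02 and 11.1 in WT, and that of ahsa1a was 0.835, 0.554, 0.445 and 0 in kat6a and 5.01, 0.912, 1.39 and 1.79 in WT. The groups did not overlap for either gene. For ahsa1a, a scarce gene listed at 0 in kat6a replicate 4, the gap was small, from 0.835 in kat6a replicate 1 to 0.912 in WT replicate 2. The log2 fold changes were -0.69 ± 0.22 for ahsa1b and -1.05 ± 0.39 for ahsa1a (SE), with unadjusted limma p of 0.00965 and 0.0218. With a pseudocount of 0.1 that of ahsa1a was -2.19. The chaperonin subunit gene tcp1 did not overlap either, which makes 3 of the 48 lower without overlap, against 2.57% of all tested genes. It was at 55.3 ± 7.37 FPKM in kat6a and 71.3 ± 5.36 FPKM in WT (SD, n = 4 each). Its log2 fold change was -0.37 ± 0.16 (SE), or -0.21 with median-ratio scaling, and the 9 tested gene IDs of this chaperonin ranged from -0.37 to 0.012.

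The polyubiquitin gene ubb, which supplies ubiquitin for the removal of damaged proteins, was at 51.7, 5.08, 5.85 and 9.34 FPKM in kat6a and 75.9, 40.8, 44.4 and 63.3 FPKM in WT. The kat6a libraries other than replicate 1 lay far below WT. Its log2 fold change was -2.17 ± 0.60 (SE), with an unadjusted limma p of 0.00459 and a limma adjusted p of 0.948, and without kat6a replicate 1 the limma adjusted p was 0.0354. It was 0.115 without the pair numbered 1, and 0.767 to 1 without any other single library. For hikeshi, whose human relative carries Hsp70 into the nucleus under heat, FPKM was 2.52, 4.83, 6.69 and 1.74 in kat6a and 8.41, 7.25, 8.69 and 5.48 in WT, with a log2 fold change of -0.87 ± 0.35 (SE).

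Partners of Hsp70 outside these 5 were read as values. The gene bag3, a nucleotide exchange factor that is itself stress-inducible in mammals, was at 172, 336, 306 and 432 FPKM in kat6a and 140.1, 239, 287 and 191 FPKM in WT, higher in kat6a in 4 of 4 pairs. Its log2 fold change was 0.51 ± 0.30 (SE), with a limma adjusted p of 0.958. The adaptor gene stip1 (Hop), which joins Hsp70 to Hsp90, was at 20.7 ± 2.35 FPKM in kat6a and 21.6 ± 1.68 FPKM in WT (SD, n = 4 each).

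**Figure D5:**
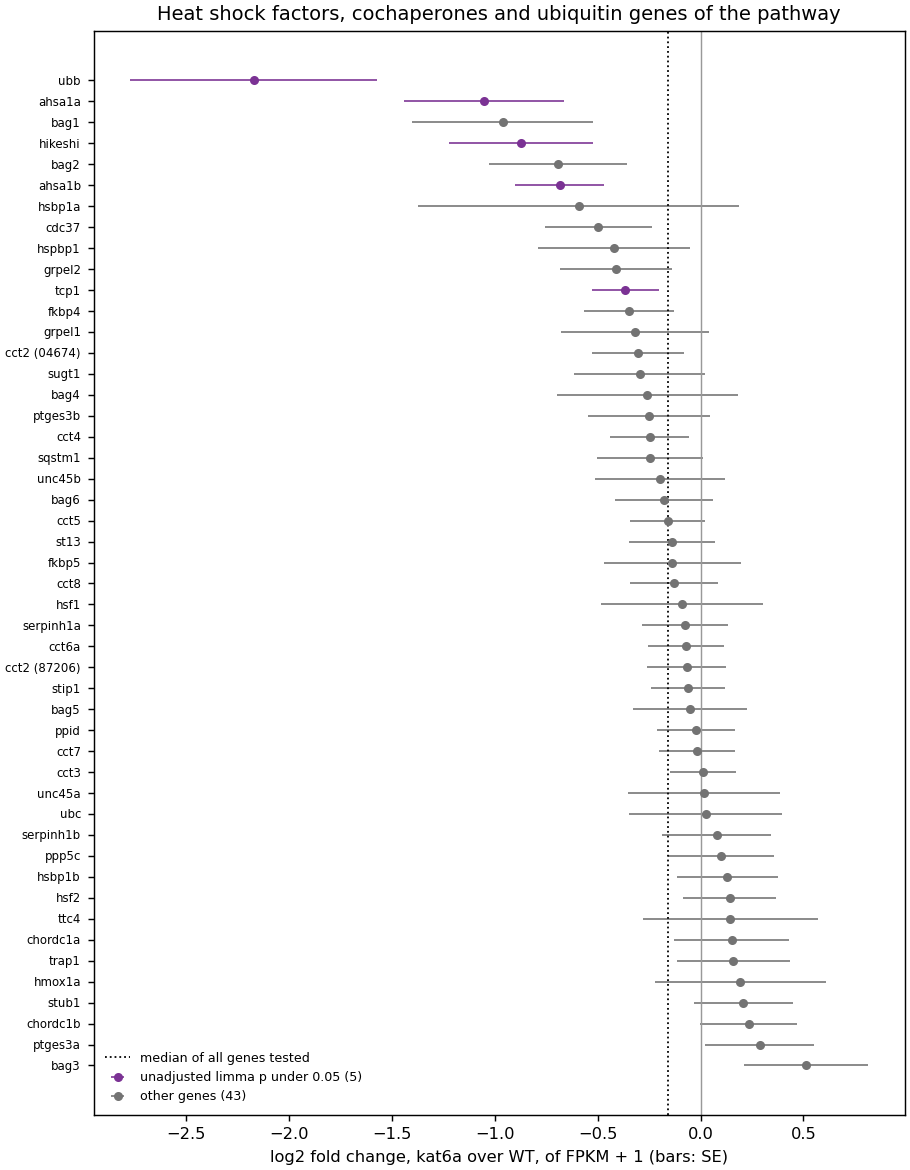
Log2 fold change of kat6a over WT on FPKM + 1, with its SE, for 48 tested gene IDs of the wider heat shock pathway (purple: unadjusted limma p under 0.05; grey: the others; dotted line: median of all genes tested; cct2 is shown for each of its IDs). The lowest is ubb at -2.17 and the highest bag3 at 0.51, and hsf1 stands at -0.089.

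Marker lists of other states and cell types were summed beside the stress-induced genes. The 17 genes of the immediate early kind that answer handling, such as fosab, junbb and ier2b, summed to 3648 to 4847 FPKM in kat6a and 3999 to 7380 FPKM in WT, lower in kat6a in 4 of 4 pairs. Not every gene of the list followed the sum. Mean FPKM was higher in kat6a than in WT for socs3a (207 against 164), btg2 (291 against 263) and fosl1a (686 against 676). All 17 had a mean FPKM of at least 0.5. Their sum was highest in WT replicate 1, which also had the highest values of the 4 hsp70 copies. Within the kat6a group the sum was 4847, 3906, 3701 and 3648 FPKM in replicates 1 to 4, so replicate 3, with a high stress-induced sum, lay between replicates 2 and 4, with low ones. Their part in the result was not tested.

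The 8 lens markers summed to 0.438 to 17.01 FPKM in kat6a and to 59.4 to 195 FPKM in WT, without overlap, and cryaa was listed at 0 in all kat6a libraries and in WT replicate 3. The lens sum in WT was 108 ± 61.4 FPKM (mean and SD, n = 4). How much hsp70 lens cells would bring cannot be read from these markers. Epidermal markers, 6 of 6 found, summed to 24.8 to 89.7 FPKM in kat6a and 37.9 to 457 in WT. Skeletal muscle markers, 12 of 12 found, summed to 672 to 1086 FPKM in kat6a and 498 to 758 in WT, with smyd1b listed at 0 in kat6a replicates 1, 2 and 4 and WT replicates 2 and 3. The part of these cell types in the result was not tested.

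The authors' deposited table gives its own p for 75 of the 79 members. It holds 3 members lower in kat6a at p under 0.05, against 2.62% of all genes with a p, namely dnajb4, hsph1 and dnajc9, and 1 higher member, hsp90ab1, against 1.28%. In the authors' deposited table hsp70l has a fold of 1.68 for WT over kat6a with p = 0.0889. The smallest q of a member there is 0.877.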

How the data were processed

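The authors deposited a single table of FPKM per gene and library. Per the submitters' processing notes HISAT2, StringTie and build GRCz10 were used, with no settings recorded there. Per the file headers, the authors' deposited columns also include a fold (a ratio, WT over kat6a), a p-value and a q-value. The library kit was directional, per the labels' protocols. Symbols came from the table itself, and RefSeq GRCz12tu, which matched 79 of 79 members, served only to find neighbouring genes.

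Differences were fitted to log2(FPKM + 1) by limma 3.58.1 (R 4.3.3, trended prior variance) for the 11763 genes averaging 0.5 FPKM or more. Adjusted p follow Benjamini-Hochberg over all of them, and fold changes are kat6a over WT, which this scale understates for low genes. The fit was checked on simulated data. Exact permutation tests used SciPy 1.17.1. Alternatives were another pseudocount (0.1), other filters (none, or a mean of 1), 3 scalings, a replicate block, and leaving out single libraries or the pair numbered 1. Members, lists and tests were chosen with earlier results of these data known; the ratios within a library and the counts at an unadjusted p were added after seeing the values.

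Same-numbered libraries of the groups deviated together across genes (r = 0.589, 0.347, 0.127 and 0.151 for numbers 1 to 4, each above 0.1). No methods text describes a paired design, and the numbers were taken to pair the libraries from these same values. The library name of the sample titled WT replicate 4 begins with WT3, as does that of WT replicate 3, and the titles were followed. Differently numbered libraries passed 0.1 too, so that cut does not tell pairs apart. WT replicate 3 had an r of 0.157 with kat6a replicate 2 and 0.1085 with kat6a replicate 4. The check is weakest for number 3: kat6a replicate 3 had a higher r with WT replicates 2 (0.158) and 4 (0.145) than with its own number. Counts over 4 pairs and fits with the replicate block rest on this unsure pairing. Genes were named by a rule: hsp70l, hsp70.3 and dnajb1b, every stress-induced member, the 4 most abundant of each family, members with an unadjusted p under 0.05 or groups that do not overlap, and other pathway genes with an unadjusted p under 0.05 besides hsf1, bag3 and stip1. Members named by role from the authors' table, or as dnajc12 after its values were seen fall outside it.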

Additional observations from a re-analysis of the deposited data

Results flagged for a closer look

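One library stood apart from the other 3 of its group, by Dixon's criterion, in 4 of 70 groups of values, or 5.71%. Chance gives about 1 in 20. The 70 include the groups of hspb15, which is listed at 0 in every library and could not be flagged. FPKM of hsp70.1 was 145.9 in kat6a replicate 3, against 67.8 to 74.6 in the other 3 kat6a libraries. FPKM of hsp90ab1 was 669 in kat6a replicate 1, against 361 to 407. FPKM of ubb was 51.7 in kat6a replicate 1, against 5.08 to 9.34. FPKM of dnajc9 was 3.23 in WT replicate 1, against 1.72 to 1.87 in the other 3 WT libraries.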

How the results depend on the processing

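No member was called under any of 17 alternatives, with a smallest adjusted p of 0.209 for hsp70.2. That value came with the replicate block, where its SE was 0.15 and its unadjusted limma p 0.000284, and the block with median-ratio scaling gave a smallest adjusted p of 0.258. With the replicate block 10 members were lower at an unadjusted p under 0.05 and 1 higher (dnajc12), and 1 was higher with the block and median-ratio scaling; the block changed no call. Leaving out single libraries gave 1 to 9 lower members, 0 to 1 higher members, a stress-induced median of -1.15 to -0.73 and a constitutive median of -0.15 to -0.078. In the same fits 253 to 684 of all 11763 tested genes were lower at an unadjusted p under 0.05, and 52 to 138 were higher. The constitutive median moved to 0.039 with median-ratio scaling, with or without the block, 0.060 with quantile normalisation and 0.027 with upper-quartile scaling. Of 29 named genes 20 kept their sign throughout, among them the 4 hsp70 copies, dnajb1b and hsp90aa1.2. Sign changes were as follows, and the cause was not tested. With median-ratio scaling, with or without the block, hspa8 stood at 0.049, hsp90ab1 at 0.16, dnajb11 at 0.077, hsf1 at 0.026 and stip1 at 0.091. Upper-quartile scaling gave 0.036, 0.15, 0.065, 0.016 and 0.079 for the same 5, and quantile normalisation 0.18 for hspb2, 0.12 for hsf1 and 0.015 for stip1. With 1 library left out the values ranged from -0.20 to 0.26 for hsp90ab1, -0.42 to 0.23 for hspb2, -0.37 to 0.098 for dnajb11, -0.33 to 0.32 for hsf1, -0.42 to 0.036 for dnajb1a, -0.18 to 0.40 for hspe1 and -0.025 to 0.15 for dnaja2a; without the pair numbered 1 hsp90ab1 was 0.060. FPKM without counts sets no detection limit for the scarce members.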

Other observations

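The authors' fold and the ratio of mean FPKM lay on opposite sides of 1 for 10 members. For hsp90ab1 the authors' deposited table gives a fold of 0.803 for WT over kat6a with p = 0.0128, while the ratio of mean FPKM, WT over kat6a, computed here was 1.03.

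Within the hsp70 cluster hsp70.1 did not track its neighbours in every library. The ratio of hsp70.1 to hsp70.3 was 0.242 in kat6a replicate 1 and 0.324 in WT replicate 4, against 0.577 to 0.648 in the other 6 libraries.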
